A study of Macaca fascicularis with 16 samples.

Results

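The 9 genes described here encode the core of vascular cGMP signalling: the nitric oxide synthase NOS3, the guanylyl cyclase subunits GUCY1A1 and GUCY1B1, the natriuretic peptide receptors NPR1, NPR2 and NPR3, the phosphodiesterases PDE3A and PDE5A, and the kinase PRKG1. They were taken by symbol from a table of 32822 NCBI GeneIDs for Macaca fascicularis (cynomolgus monkey). Each symbol matched 1 row, and all 9 passed the filter on low counts, which left 15921 genes. Bulk RNA sequencing had been done on 16 libraries of whole aorta from normal young monkeys at baseline, with no treatment, 4 libraries from each region. The regions were the infrarenal and suprarenal aorta, which lie in the abdomen below and above the renal arteries, and the descending and ascending aorta, which lie in the chest. The labels give each library a region and a number, and name no sex, exact age or animal. They do not say that the 4 libraries of a region came from different animals, so the p-values below measure the spread between these libraries.

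Nitric oxide made by NOS3 in the endothelium diffuses to the smooth muscle below, where it activates soluble guanylyl cyclase, a dimer of an alpha and a beta subunit, to make cGMP. Natriuretic peptides raise cGMP by a second route, through the membrane cyclases NPR1 and NPR2. cGMP activates the kinase encoded by PRKG1, which relaxes smooth muscle, and phosphodiesterases end the signal. In the aorta this pathway sets tone and opposes smooth muscle growth.

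Levels are given in CPM, the usual library-scaled count, with library totals adjusted by TMM, the trimmed mean of M-values method of edgeR. Differences are on the log2 scale from edgeR's quasi-likelihood F test on the raw counts of all 16 libraries, the more distal region minus the more proximal one, and a gene was called where the Benjamini-Hochberg adjusted p over all 15921 genes was under 0.05. The files give no transcript lengths, so levels are compared between regions and not between genes.

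Library totals ran from 14387141 to 21396766 counts. A few libraries stood apart before any test. Infrarenal replicate 1 held 104375 CPM over 77 ribosomal protein genes, against 32215 to 49004 CPM in the other 15, and its 12 contractile smooth muscle markers summed to 119362 CPM, against 25388 to 50973 CPM in the rest. Suprarenal replicate 3 had the lowest contractile sum, 25388 CPM, and the highest endothelial sum, 4229 CPM. Ascending replicate 4 had the next lowest contractile sum, 30714 CPM, with 1027 CPM of mesothelial markers against 24.9 to 162 CPM elsewhere. Contractile and endothelial markers were detected in all 16 libraries, which goes with the tissue label but cannot tell aorta from other tissue with vessels. Of the other marker lists, edgeR called COL1A1 of 10 fibroblast markers higher for infrarenal minus ascending. KRT8 of 6 mesothelial and MYH6 of 5 cardiac markers were called lower. All 9 pericyte and mural markers tested had a positive difference there, with a median of 0.96 against 0.05 over all genes. Of these, edgeR called PDGFRB, MCAM and NOTCH3 higher. It called 0 of 26 macrophage, lymphocyte, Schwann cell and platelet markers there, where 4 had an unadjusted p under 0.05, DESeq2 called 1 and voom 0. All 10 adipocyte markers had a positive difference there, with a median of 2.90, of which 7 had an unadjusted p under 0.05, edgeR called 0, DESeq2 2 and voom 0. Their summed level was 176 to 4516 CPM in infrarenal, 158 to 3615 CPM in suprarenal, 377 to 4836 CPM in descending and 158 to 677 CPM in ascending libraries. Infrarenal replicate 3 had the highest infrarenal sum, and the part of these markers in the infrarenal minus ascending differences below was not tested.

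Between the infrarenal and ascending aorta, the ends of the vessel, 3 of the 9 genes were called: PDE3A and GUCY1A1 were higher and NPR2 was lower in the infrarenal region. Over all genes tested, 3.49% were called in this comparison, 1.43% higher and 2.06% lower. With the 2 abdominal regions set against the 2 thoracic regions, a grouping made here and not in the labels, GUCY1A1 and GUCY1B1 were both called higher in the abdomen, against a background of 2.11% called in either direction and 0.942% called higher. NPR2 was called lower in the infrarenal region than in the mean of the other 3 regions, where 2.98% of all genes were called and 1.61% were called lower. GUCY1A1 was also called for any difference among the 4 regions, a test that called 2.02% of all genes. The median log2 difference of the 9 genes was 0.38 for infrarenal minus ascending, 0.38 for abdominal minus thoracic and 0.37 for infrarenal minus the rest, against 0.05, 0.04 and 0.03 over all genes. In each, 5 of 9 genes were higher and 4 lower, and the median was the value of NPR1, which was not called.

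**Figure D1:**
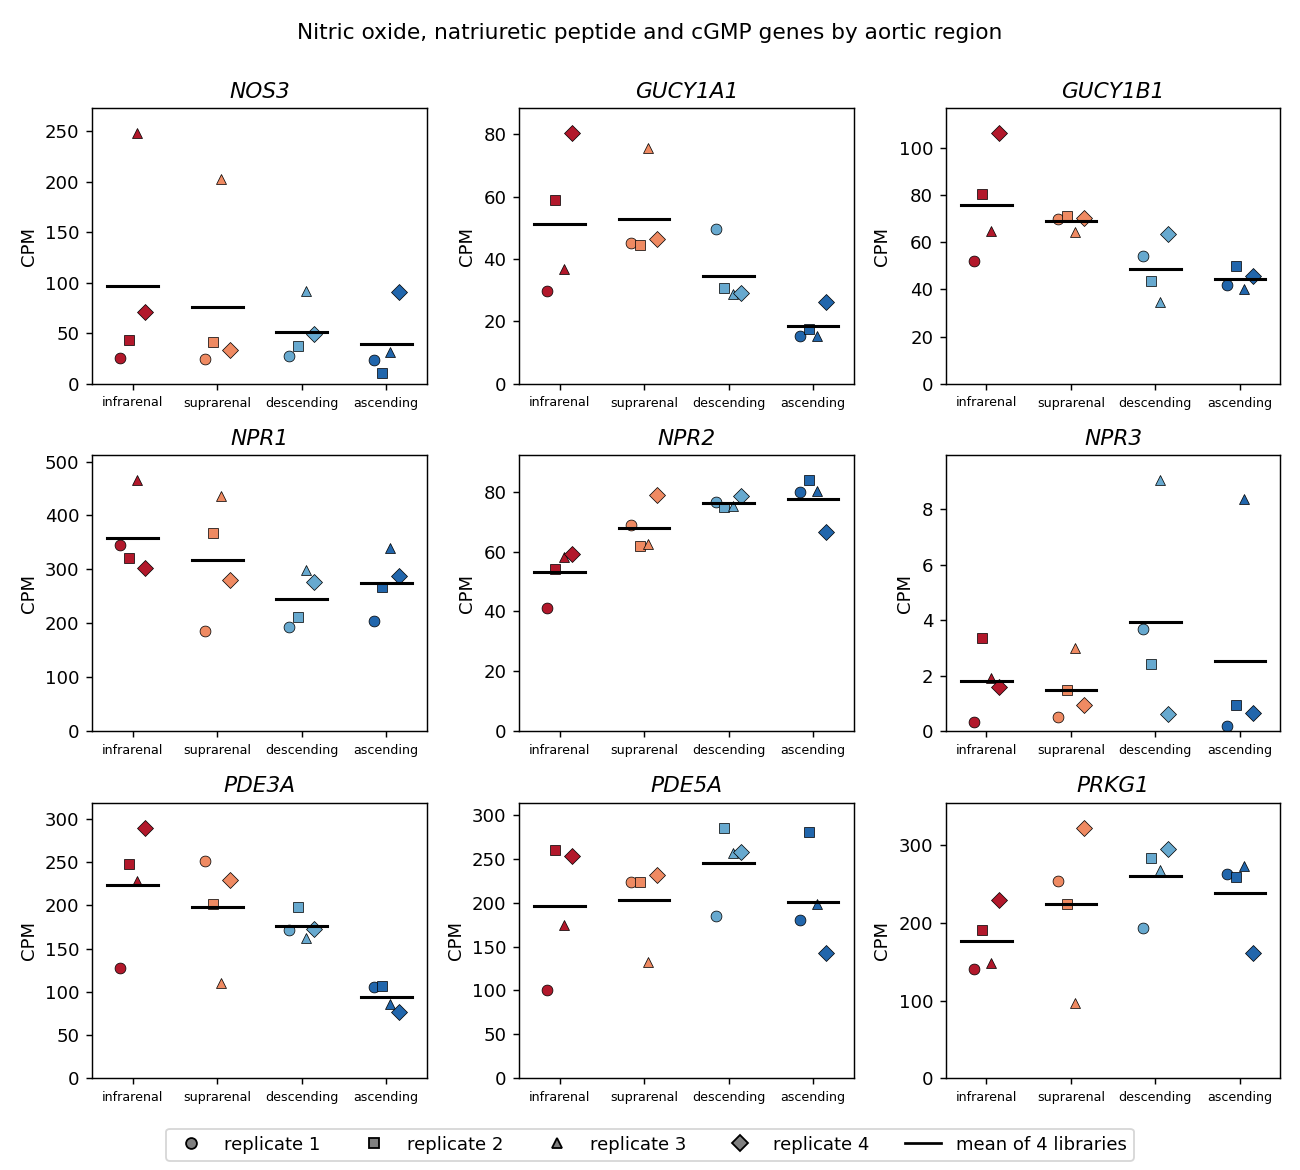
Levels of the 9 genes in CPM (vertical axes, from 0) by aortic region, 1 point per library with its replicate number as the marker shape and a bar at the mean of 4 libraries. PDE3A and GUCY1A1 were lowest in the ascending region, at 93.8 and 18.7 CPM on average, and NPR2 was lowest in the infrarenal region, at 53.2 CPM.

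The first step of the pathway, NOS3, was not called in any comparison. NOS3 had 25.3, 43.3, 248 and 71.5 CPM in infrarenal libraries, 24.9, 41.8, 203 and 33.9 CPM in suprarenal libraries, 27.4, 37.1, 92.2 and 49.5 CPM in descending libraries, and 23.4, 10.6, 31.4 and 91.1 CPM in ascending libraries. The region means followed the order infrarenal, suprarenal, descending and ascending, but the libraries of neighbouring regions overlapped, and each of the abdominal means rested on 1 library far above the other 3. The log2 difference for infrarenal minus ascending was 1.31 ± 0.81 (SE, 95% interval -0.41 to 3.03, adjusted p = 0.608). For abdominal minus thoracic it was 0.93 ± 0.57 (adjusted p = 0.682), and for infrarenal minus the rest it was 0.86 ± 0.62 (adjusted p = 0.590). Without infrarenal replicate 3 the last value was -0.19, so its sign rested on that library.

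NOS3 is known as an endothelial gene, so endothelial markers are given beside it. The summed CPM of 16 endothelial markers, which do not include NOS3, was 1192 to 3398 in infrarenal, 691 to 4229 in suprarenal, 950 to 1240 in descending and 605 to 2523 in ascending libraries. The libraries highest in each region for NOS3 were also highest for this sum. Descending replicates 1, 2 and 4 had nearly equal sums, 953, 969 and 950 CPM, with NOS3 levels of 27.4, 37.1 and 49.5 CPM. In abdominal minus thoracic, 15 of the 16 markers had a positive difference, with a median of 0.77, and 1 of them, the junction protein gene ESAM, was called. In bulk tissue, fewer cells of a type and less RNA per cell cannot be told apart, and the part of these markers in the NOS3 levels was not tested. With infrarenal replicate 1, suprarenal replicate 3 and ascending replicate 4 left out together, NOS3 was called for infrarenal minus the rest (1.85, adjusted p = 0.0198) and for infrarenal minus ascending (2.47, adjusted p = 0.0229). Suprarenal replicate 3 and ascending replicate 4 held the highest NOS3 level of their regions, and infrarenal replicate 1 the lowest of its own. These libraries were picked from the same data, and suprarenal replicate 3 also had the highest endothelial sum, 4229 CPM. Infrarenal replicate 3, with 248 CPM of NOS3 and an endothelial sum of 3398 CPM, was kept. The NOS3 calls therefore depend on which libraries were left out.

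**Figure D2:**
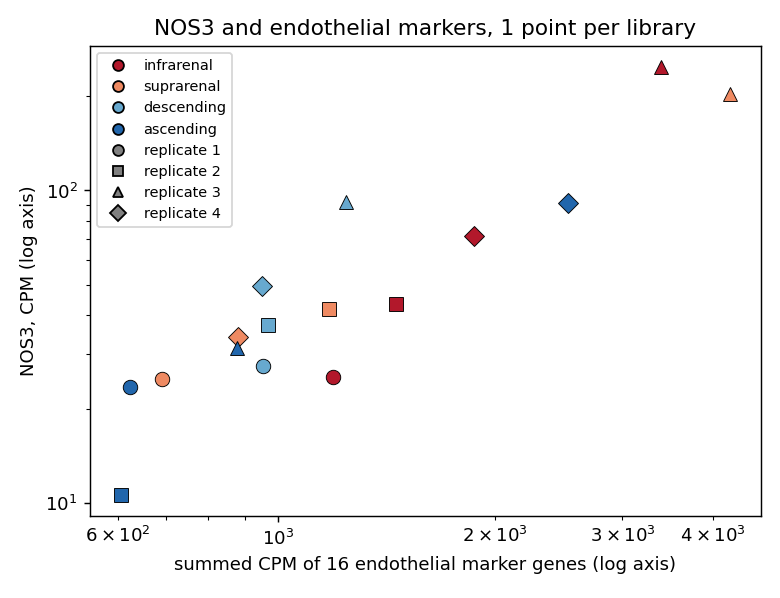
NOS3 level against the summed level of 16 endothelial markers, both in CPM on log axes, 1 point per library with colour for region and shape for replicate number. The libraries with the most NOS3, infrarenal replicate 3 at 248 CPM and suprarenal replicate 3 at 203 CPM, also had the highest marker sums, 3398 and 4229 CPM.

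The nitric oxide receptor, soluble guanylyl cyclase, had more RNA in the mean of the 2 abdominal regions than of the 2 thoracic ones. GUCY1A1, its alpha subunit, had 29.8, 59.0, 36.7 and 80.3 CPM in infrarenal libraries, 45.2, 44.4, 75.7 and 46.5 CPM in suprarenal libraries, 49.8, 30.7, 28.8 and 29.2 CPM in descending libraries, and 15.2, 17.5, 15.4 and 26.4 CPM in ascending libraries. Every ascending library lay below every library of the other 3 regions. GUCY1A1 rose in abdominal relative to thoracic libraries by 1.04 ± 0.22 (SE, 95% interval 0.57 to 1.50, adjusted p = 0.0187), a fold of 2.05. In infrarenal relative to ascending libraries it rose by 1.46 ± 0.31 (95% interval 0.80 to 2.13, adjusted p = 0.0141), a fold of 2.76. For suprarenal minus ascending the difference was of the same size, 1.50 ± 0.31, but its adjusted p was 0.0708. For infrarenal minus suprarenal it was -0.04 (95% interval -0.69 to 0.61). Against the descending region the differences were smaller, 0.57 ± 0.31 for infrarenal (adjusted p = 0.418) and 0.61 ± 0.31 for suprarenal libraries. Both had overlapping libraries and were not called. Descending minus ascending was 0.89 ± 0.31 (adjusted p = 0.505), also not called, so the abdominal minus thoracic value includes the low ascending libraries. The test for any difference among the regions gave an adjusted p of 0.0453.

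GUCY1B1, the beta subunit that carries the haem to which nitric oxide binds, showed a smaller step. It had 51.9, 80.4, 64.5 and 106 CPM in infrarenal libraries, 69.9, 71.2, 64.3 and 70.3 CPM in suprarenal libraries, 54.0, 43.6, 34.5 and 63.3 CPM in descending libraries, and 41.7, 49.9, 40.2 and 45.5 CPM in ascending libraries. The lowest, median and highest of the 8 abdominal libraries were 51.9, 70.1 and 106 CPM, against 34.5, 44.5 and 63.3 CPM in the 8 thoracic libraries, so the ranges met only between infrarenal replicate 1 and the descending replicates 1 and 4. GUCY1B1 rose in abdominal relative to thoracic libraries by 0.63 ± 0.15 (95% interval 0.32 to 0.95, adjusted p = 0.0338), a fold of 1.55. For infrarenal minus ascending the libraries did not overlap and the difference was 0.77 ± 0.21, with an adjusted p of 0.0547. That difference was called with DESeq2's size factors in edgeR (adjusted p = 0.0480) and by DESeq2 (0.00952). The region means placed suprarenal (68.9 ± 3.16 CPM, SD, n = 4) above descending (48.8 ± 12.5 CPM) with no overlap, at a difference of 0.50 that was not called (adjusted p = 1.00).

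GUCY1A1 and GUCY1B1 are neighbouring genes in the RefSeq annotation, and their log2 levels had a Pearson r of 0.78 over the 16 libraries, the highest of the 36 pairs among the 9 genes, and of 0.59 after region means were removed, when other pairs were higher. The abdominal call of GUCY1A1 was lost only without descending replicate 3 (adjusted p = 0.0506) among the 16 fits that left out 1 library. Its infrarenal minus ascending call was lost without infrarenal replicate 4 or without ascending replicates 1, 2 or 3, with adjusted p up to 0.0553, and its call for any difference was lost in 12 of the 16, with adjusted p up to 0.160. The GUCY1B1 call was lost in 10 of the 16 fits, with adjusted p up to 0.0851, and held without infrarenal replicates 1 or 3, suprarenal replicate 3, descending replicates 1 or 4, or ascending replicate 4. Some markers of mural cells changed as well. All 9 pericyte and mural markers tested had a positive abdominal minus thoracic difference, with a median of 0.53, and PDGFRB, MCAM and NOTCH3 were called higher, with KCNJ8 called higher as well for infrarenal minus the rest. The summed level of the 10 listed was 5275 to 7138 CPM in infrarenal, 2021 to 8444 CPM in suprarenal, 5628 to 6858 CPM in descending and 2033 to 3504 CPM in ascending libraries, and their part in the cyclase differences was not tested. Suprarenal replicate 3 had the lowest mural sum of its region, 2021 CPM. In that region it had the highest GUCY1A1 level, 75.7 CPM, and the lowest GUCY1B1 level, 64.3 CPM. The 10 fibroblast markers summed to 5167 to 8720 CPM in infrarenal and 3222 to 8863 CPM in suprarenal libraries. Descending libraries had 5080 to 7874 CPM and ascending 2833 to 5376 CPM. In each region the library highest for this sum was highest for GUCY1A1, which for GUCY1B1 held only in infrarenal libraries. For abdominal minus thoracic 5 of these markers were higher, 5 lower, and COL1A1 was called (1.13, adjusted p = 0.0108). Their part was not tested.

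The other alpha subunit, GUCY1A2, averaged 22.3 ± 14.6 CPM in infrarenal, 15.8 ± 8.15 CPM in suprarenal, 13.7 ± 1.41 CPM in descending and 4.72 ± 3.38 CPM in ascending libraries (SD, n = 4 each). It was the only one of 5 other guanylyl cyclase genes listed to pass the filter, and its infrarenal minus ascending difference of 2.24 ± 0.60 had an adjusted p of 0.0542 (DESeq2 called it, voom did not). GUCY2D and GUCY2C, cyclases best known from the retina and the intestine, had 42 and 15 counts summed over the 16 libraries, and GUCY2F had 0.

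**Figure D3:**
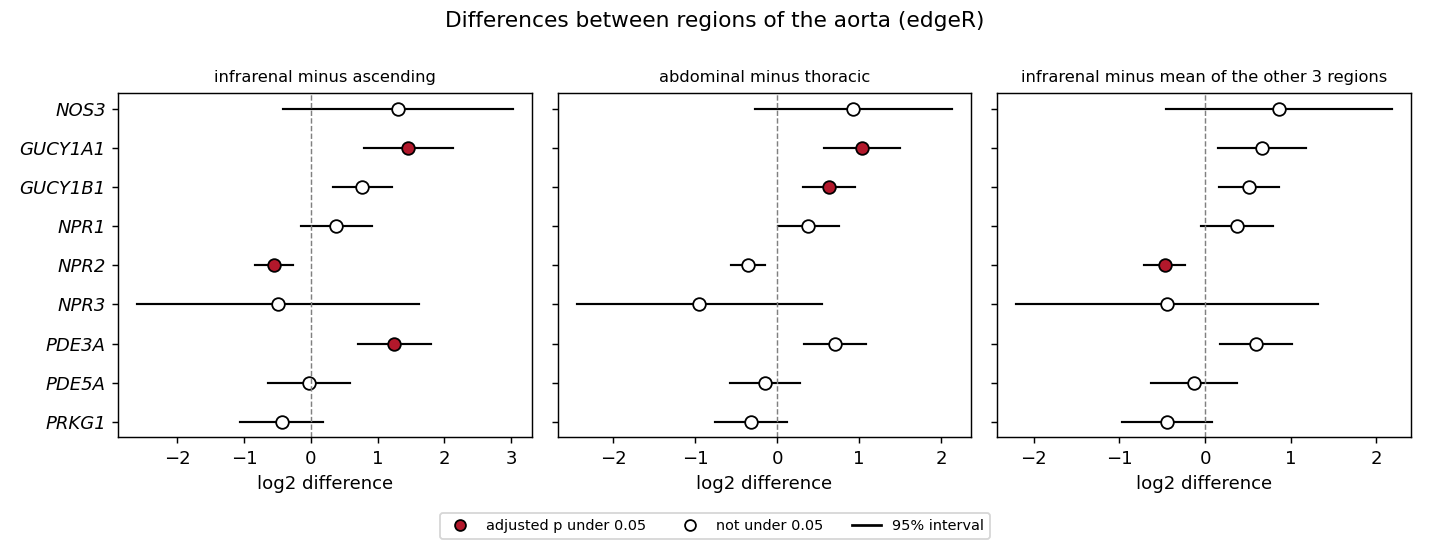
Log2 differences of the 9 genes (horizontal axes) with 95% intervals for infrarenal minus ascending, abdominal minus thoracic, and infrarenal minus the mean of the other 3 regions. Filled points have an adjusted p under 0.05: GUCY1A1 (1.46), NPR2 (-0.55) and PDE3A (1.25) in the first panel, GUCY1A1 (1.04) and GUCY1B1 (0.63) in the second, and NPR2 (-0.47) in the third.

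The natriuretic peptide receptors did not share a pattern. NPR2, the membrane cyclase that responds to C-type natriuretic peptide, had 41.1, 54.1, 58.2 and 59.3 CPM in infrarenal libraries, 69.0, 61.9, 62.4 and 78.8 CPM in suprarenal libraries, 76.6, 75.0, 75.1 and 78.7 CPM in descending libraries, and 79.8, 83.8, 80.4 and 66.6 CPM in ascending libraries. All 4 infrarenal libraries lay below the other 12, whose lowest, median and highest values were 61.9, 75.8 and 83.8 CPM. NPR2 was the only one of the 9 genes whose infrarenal libraries stood clear of all others, as 1.38% of all genes did in either direction. It fell in infrarenal relative to the other regions by 0.47 ± 0.11 on the log2 scale (adjusted p = 0.0324), a fold of 0.72, and in infrarenal relative to ascending libraries by 0.55 ± 0.14 (adjusted p = 0.0341), a fold of 0.69.

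The other NPR2 differences were not called. For infrarenal minus descending the difference was -0.52 ± 0.14 (adjusted p = 0.0741), for infrarenal minus suprarenal it was -0.35 ± 0.13 (adjusted p = 0.705), and for abdominal minus thoracic it was -0.36 ± 0.10 (adjusted p = 0.0735). Infrarenal replicate 1 had the lowest NPR2 level of all, 41.1 CPM, and without it the difference from the other regions was -0.37 (adjusted p = 0.0557). Over the 16 fits that left out 1 library this difference stayed between -0.53 and -0.37 and its call was lost in 12, with adjusted p up to 0.0968. It held without infrarenal replicate 4, suprarenal replicates 2 or 3, or ascending replicate 4. The infrarenal minus ascending call was lost in 9 of the 16 fits, those without infrarenal replicates 2 or 3, any descending replicate, or ascending replicates 1, 2 or 3, with adjusted p up to 0.111. The span of NPR2 overlaps that of RGP1 in the annotation, and the strand setting of the counting is not stated, so reads of the 2 genes could not be told apart there. RGP1 differed by -0.13 ± 0.15 (adjusted p = 0.774) for infrarenal minus the rest.

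NPR1, the receptor of atrial and B-type natriuretic peptides, ran in the other direction without a call. NPR1 had 346, 322, 465 and 302 CPM in infrarenal libraries, 186, 368, 436 and 281 CPM in suprarenal libraries, 193, 212, 299 and 277 CPM in descending libraries, and 205, 267, 340 and 288 CPM in ascending libraries. The 4 infrarenal libraries lay above the 4 descending ones, with a difference of 0.55 ± 0.25 (adjusted p = 0.343). Against the mean of the other regions the infrarenal difference was 0.37 ± 0.20 (95% interval -0.05 to 0.79, adjusted p = 0.436), and abdominal minus thoracic was 0.38 ± 0.18 (adjusted p = 0.473). Replicate 3 held the highest NPR1 level in every region. NPR1 overlaps ILF2 in the annotation, which had 18569 counts over the 16 libraries against 79159 for NPR1 and differed by 0.17 ± 0.12 (adjusted p = 0.559) for infrarenal minus the rest.

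NPR3, which clears natriuretic peptides from the tissue and lacks a cyclase domain, was scarce, with 646 counts over all 16 libraries. It had 0.309, 3.37, 1.90 and 1.59 CPM in infrarenal libraries, 0.495, 1.48, 2.98 and 0.945 CPM in suprarenal libraries, 3.67, 2.41, 9.04 and 0.610 CPM in descending libraries, and 0.188, 0.926, 8.36 and 0.664 CPM in ascending libraries. The spread within a region was wider than any step between regions, and 1 library set each thoracic mean. The abdominal minus thoracic difference was -0.95 ± 0.70 (95% interval -2.45 to 0.55, adjusted p = 0.765), and without ascending replicate 3 it was 0.09.

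The peptides themselves gave few counts in the aorta. NPPC, which encodes C-type natriuretic peptide, had 32 counts in infrarenal, 8 in suprarenal, 24 in descending and 5 in ascending libraries, each summed over 4 libraries. NPPA and NPPB, the cardiac peptide genes, had 3 and 10 counts over all 16, and OSTN had 0. None of the 4 passed the filter. The 3 other listed genes of this group, the processing enzymes CORIN and FURIN and the peptidase MME, were tested, and edgeR, DESeq2 and voom each called 0 for infrarenal minus ascending, where 1 had an unadjusted p under 0.05.

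Of the phosphodiesterases, PDE3A was more abundant in the infrarenal than in the ascending aorta. Its enzyme breaks down cAMP and is inhibited by cGMP, which links the 2 second messengers. PDE3A had 128, 248, 228 and 290 CPM in infrarenal libraries, 251, 201, 110 and 229 CPM in suprarenal libraries, 171, 198, 162 and 173 CPM in descending libraries, and 105, 107, 86.2 and 76.6 CPM in ascending libraries. No ascending library reached the lowest library of any other region. PDE3A rose in infrarenal relative to ascending libraries by 1.25 ± 0.26 (SE, 95% interval 0.71 to 1.80, adjusted p = 0.0113), a fold of 2.38. The difference was 1.07 ± 0.26 for suprarenal minus ascending (adjusted p = 0.130) and 0.91 ± 0.25 for descending minus ascending (adjusted p = 0.294), which were not called. For abdominal minus thoracic it was 0.71 ± 0.18, with an adjusted p of 0.0531. This last difference was called in 5 of 9 other settings, among them DESeq2's size factors in edgeR (0.72, adjusted p = 0.0469), a filter on CPM (0.0497) and DESeq2 (0.00521).

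The infrarenal minus ascending call of PDE3A held in all 16 fits that left out 1 library, with adjusted p up to 0.0407, and in the 10 other settings tried, with adjusted p up to 0.0432. Its lowest values in the infrarenal and suprarenal regions were in infrarenal replicate 1 and suprarenal replicate 3. Without infrarenal replicate 1, PDE3A was also called for abdominal minus thoracic (0.81, adjusted p = 0.0108) and for infrarenal minus the rest (0.79, adjusted p = 0.0302). The mural marker sum of the ascending libraries, 2033 to 3504 CPM, lay below that of every infrarenal and descending library. Suprarenal replicate 3 was lower still, at 2021 CPM. The part of these markers in the PDE3A difference was not tested. The summed contractile markers overlapped, at 36452 to 119362 CPM in infrarenal and 30714 to 50913 CPM in ascending libraries. Of the 12 markers, 9 had a positive difference in this comparison, with a median of 0.45 against 0.05 over all genes. For them edgeR, DESeq2 and voom each called 0, and 4 had an unadjusted p under 0.05.

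PDE5A, the cGMP-specific phosphodiesterase that sildenafil inhibits, showed no regional order. PDE5A had 100, 260, 175 and 254 CPM in infrarenal libraries, 224, 224, 133 and 232 CPM in suprarenal libraries, 185, 286, 257 and 258 CPM in descending libraries, and 180, 281, 199 and 143 CPM in ascending libraries. The libraries of all 4 regions overlapped. The log2 difference was -0.03 ± 0.29 for infrarenal minus ascending (95% interval -0.64 to 0.58, adjusted p = 0.987) and -0.15 ± 0.20 for abdominal minus thoracic (95% interval -0.58 to 0.28, adjusted p = 0.894). The sign of the infrarenal minus ascending value changed with single libraries, to 0.19 without infrarenal replicate 1.

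The ratio of PDE3A to PDE5A within a library, a quantity chosen after the values were seen and given without a test, was 1.28, 0.954, 1.30 and 1.14 in infrarenal libraries, 1.12, 0.895, 0.829 and 0.986 in suprarenal libraries, 0.925, 0.690, 0.631 and 0.670 in descending libraries, and 0.583, 0.381, 0.432 and 0.535 in ascending libraries. The region means were 1.17 ± 0.160, 0.958 ± 0.127, 0.729 ± 0.133 and 0.483 ± 0.0923 in that order (SD, n = 4 each), and the ascending libraries lay below all others. Infrarenal replicate 1 and suprarenal replicate 3, the lowest of their regions for both genes, had ratios of 1.28 and 0.829. The ratio of GUCY1A1 to GUCY1B1 averaged 0.659 ± 0.101 in infrarenal, 0.777 ± 0.268 in suprarenal, 0.732 ± 0.201 in descending and 0.420 ± 0.107 in ascending libraries, with overlap between the regions. The ratio of NPR2 to NPR1 was 0.119 to 0.196 in infrarenal libraries, below the 0.251 to 0.397 of descending and the 0.231 to 0.388 of ascending libraries, while the suprarenal range of 0.143 to 0.371 crossed both. A ratio of CPM also carries the lengths of the 2 genes, so its size says nothing of which gene is more abundant.

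**Figure D4:**
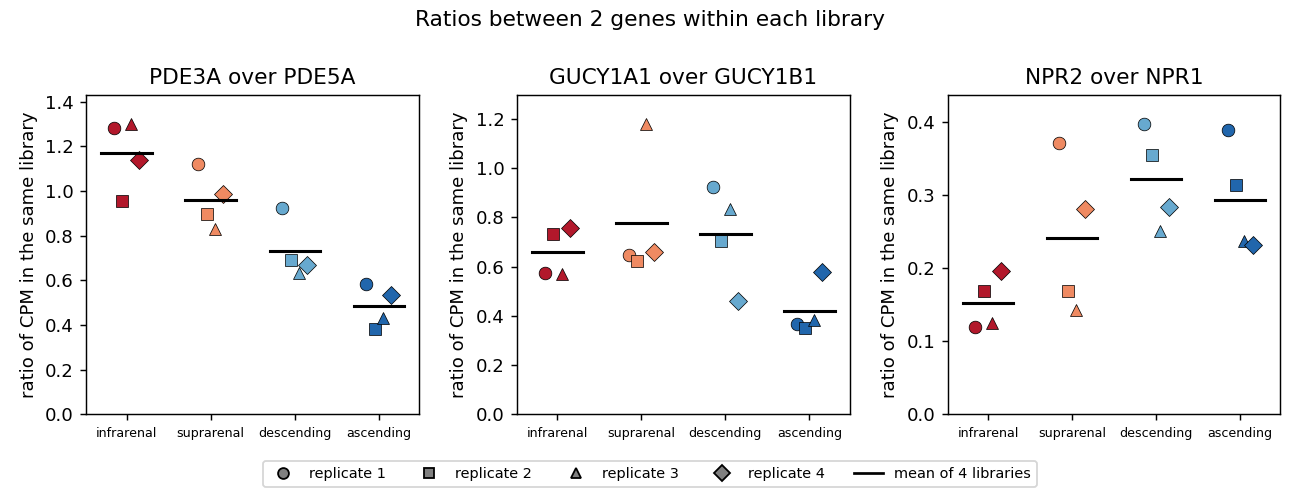
Ratios of CPM between 2 genes in the same library (vertical axes, from 0) by region, 1 point per library with its replicate number as the shape and a bar at the mean of 4 libraries. The ratio of PDE3A to PDE5A averaged 1.17 in infrarenal and 0.483 in ascending libraries, and the ratio of NPR2 to NPR1 averaged 0.152 in infrarenal and 0.293 in ascending libraries.

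PRKG1, the kinase that cGMP activates, was not called in any comparison. PRKG1 had 140, 191, 149 and 229 CPM in infrarenal libraries, 254, 225, 97.4 and 323 CPM in suprarenal libraries, 193, 284, 268 and 295 CPM in descending libraries, and 263, 259, 274 and 161 CPM in ascending libraries. The infrarenal mean of 177 ± 40.9 CPM was the lowest and the descending mean of 260 ± 46.1 CPM the highest, and the libraries overlapped. For infrarenal minus the rest the difference was -0.44 ± 0.25 (95% interval -0.97 to 0.08, adjusted p = 0.453), and for infrarenal minus ascending it was -0.43 ± 0.29 (adjusted p = 0.658). PRKG1 overlaps CSTF2T in the annotation, which had 3186 counts over the 16 libraries against 60330 for PRKG1 and differed by 0.18 ± 0.25 (adjusted p = 0.831) for infrarenal minus the rest. The lowest PRKG1 levels of each region were in infrarenal replicate 1, suprarenal replicate 3, descending replicate 1 and ascending replicate 4. PRKG1 and PDE5A had a Pearson r of 0.76 over the 16 libraries, both with and without region means. After region means were removed, PDE5A and PDE3A had an r of 0.85 and PRKG1 and PDE3A an r of 0.80, against 0.48 and 0.23 before. These correlations describe libraries that share depth, scaling and cell content, and the 3 libraries that stood apart are among the 16.

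Between the other pairs of regions, none of the 9 genes was called by edgeR. For infrarenal minus suprarenal edgeR called 0.201% of all genes. There 1 of the 9 had an unadjusted p under 0.05, as had 5.77% of all genes, while DESeq2 and voom called 0 of the 9 and 167 and 15 of all genes. For infrarenal minus descending edgeR called 1.65% of all genes. There 3 of the 9 had an unadjusted p under 0.05, as had 13.8% of all genes, while DESeq2 called 1 of the 9 (NPR2) among 623 genes and voom 0 among 242. For suprarenal minus descending edgeR, DESeq2 and voom called 0 of all genes (0%), and 1 of the 9 had an unadjusted p under 0.05, as had 1.66% of all genes. For suprarenal minus ascending edgeR called 0.258% of all genes. There 3 of the 9 had an unadjusted p under 0.05, as had 5.50% of all genes, while DESeq2 called 2 (GUCY1A1 and PDE3A) among 184 genes and voom 0 among 42. For descending minus ascending edgeR called 0.113% of all genes. There 2 of the 9 had an unadjusted p under 0.05, as had 6.74% of all genes, while DESeq2 called 0 of the 9 among 177 genes and voom 0 among 9.

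Complete separation of the libraries did not follow the calls in every comparison. Between infrarenal and ascending libraries 4 of the 9 genes did not overlap (GUCY1A1, GUCY1B1 and PDE3A above, NPR2 below), as did 7.19% of all genes. Between suprarenal and ascending libraries GUCY1A1, GUCY1B1 and PDE3A did not overlap (3.82% of all genes), and between descending and ascending libraries GUCY1A1 and PDE3A did not (11.8%). NPR1 and NPR2 separated infrarenal from descending libraries (10.1%), NPR2 separated infrarenal from suprarenal libraries (2.43%), and GUCY1B1 separated suprarenal from descending libraries (1.80%). None of the 9 separated the 8 abdominal from the 8 thoracic libraries, as 0.100% of all genes did. Among pairs with the descending region the background reached 10.1% and 11.8%, so 1 or 2 genes that separate there say little about these 9.

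Other genes of the pathway were taken from 5 lists. In nitric oxide synthesis and its control, 17 of 21 listed genes were tested and edgeR, DESeq2 and voom each called 0 in the infrarenal minus ascending, abdominal minus thoracic and infrarenal minus rest comparisons, where 0, 0 and 2 had an unadjusted p under 0.05. They included CAV1, which holds NOS3 inactive in caveolae, at 917 ± 181, 846 ± 73.1, 757 ± 75.8 and 781 ± 120 CPM in infrarenal, suprarenal, descending and ascending libraries (SD, n = 4 each), and GCH1, which makes the tetrahydrobiopterin cofactor, at 18.9 ± 6.01, 21.8 ± 8.17, 20.7 ± 7.55 and 18.4 ± 6.01 CPM. The median log2 difference of the list was 0.06 for abdominal minus thoracic, against 0.04 over all genes. NOS1 had 16 counts over all libraries and did not pass the filter. NOS2, GUCY1B2 and CRIP2 were not analysed here.

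Of 12 other genes listed as phosphodiesterases that act on cGMP, 8 were tested, among them the subunit gene PDE6D. For infrarenal minus the rest edgeR called 0, DESeq2 2 and voom 0, and 2 had an unadjusted p under 0.05. PDE2A, which cGMP stimulates, averaged 45.2 ± 15.5 CPM in infrarenal libraries, 97.1 ± 29.6 CPM in suprarenal, 93.3 ± 31.0 CPM in descending and 91.1 ± 37.1 CPM in ascending libraries, with a difference of -1.05 ± 0.29 for infrarenal minus the rest (adjusted p = 0.0632). PDE10A averaged 13.4 ± 7.60 CPM in infrarenal libraries, against 7.31 ± 2.44, 6.01 ± 0.444 and 5.11 ± 1.56 CPM in suprarenal, descending and ascending libraries, with a difference of 1.14 ± 0.30 (adjusted p = 0.0553). The median of the list for infrarenal minus the rest was -0.24, against 0.03 over all genes.

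Of the genes of cGMP kinase targets and cGMP export, 16 of 17 were tested. For abdominal minus thoracic edgeR called 0, DESeq2 2 and voom 0, and 4 had an unadjusted p under 0.05. For infrarenal minus the rest 1 was called, RGS2, a regulator of G protein signalling that the kinase activates in smooth muscle. RGS2 averaged 68.7 ± 26.8 CPM in infrarenal libraries, against 17.0 ± 8.80 CPM in suprarenal, 10.8 ± 3.34 CPM in descending and 23.0 ± 10.4 CPM in ascending libraries (SD, n = 4 each), a rise of 2.09 ± 0.30 (adjusted p = 0.00112). For infrarenal minus ascending 3 were called. RGS2 rose by 1.58 ± 0.41 (adjusted p = 0.0429) and the cation channel gene TRPC6 by 1.27 ± 0.27 (adjusted p = 0.0135), while HSPB6, a small heat shock protein of smooth muscle, fell by 0.99 ± 0.23 on the log2 scale (adjusted p = 0.0248). The channel genes KCNMA1 and KCNMB1, PLN, VASP and the phosphatase gene PPP1R12A were tested and not called.

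For each of the 9 genes, the gene with the most similar profile was looked for among 12446 others by Pearson r of log2 levels over the 16 libraries, and each r is the highest of that many. NOS3 was nearest to FMNL3 (0.94) and CCM2L (0.94). GUCY1A1 was nearest to TNS3 (0.91) and GUCY1B1 to AMOT (0.85), genes whose region means had the order infrarenal, suprarenal, descending and ascending. TNS3 averaged 43.1, 39.4, 32.3 and 23.5 CPM and AMOT 33.6, 28.0, 23.8 and 18.5 CPM. PDE3A was nearest to MACROD2 (0.92) and TBX18 (0.90), a transcription factor gene, which averaged 95.7 ± 30.8 CPM in infrarenal libraries and 40.0 ± 8.99 CPM in ascending libraries. NPR2 was nearest to ACLY (0.95) and NIPAL2 (0.95). PRKG1 was nearest to CNST (0.96) and EDA2R (0.95), PDE5A to CCDC186 (0.95) and PPP1R12A (0.95), NPR1 to RUSF1 (0.87) and DGCR8 (0.87), and NPR3 to HIC2 (0.89) and PTCH1 (0.88). The second nearest were TNFSF13B (0.88) for GUCY1A1 and MYOF (0.85) for GUCY1B1.

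**Figure D5:**
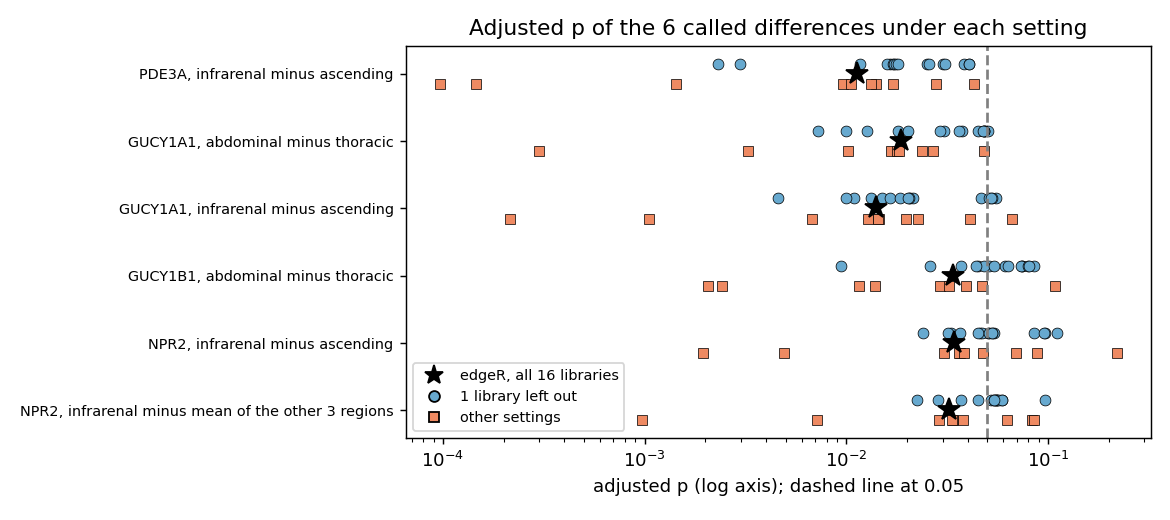
Adjusted p (horizontal log axis, dashed line at 0.05) of the called differences with a direction, with all 16 libraries (star), with 1 library left out (circles) and under the other settings (squares). PDE3A for infrarenal minus ascending stayed under the line in every fit shown, at most 0.0432, and each of the other calls crossed it in some fits.

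The calls also depended on the libraries that stood apart, which were picked from these same data. With infrarenal replicate 1, suprarenal replicate 3 and ascending replicate 4 left out together, edgeR called 4 of the 9 genes for any difference, 5 for infrarenal minus the rest, 4 for abdominal minus thoracic and 5 for infrarenal minus ascending. All genes called numbered 1130, 1607, 920 and 2099 in the same comparisons, so the background was higher as well. GUCY1A1, GUCY1B1 and PDE3A were called higher and NPR2 lower in all 3 directional comparisons in that fit.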

How the data were processed

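Per the labels' protocols, RNA came from an RNeasy fibrous tissue kit and the sequencing libraries from a NEBNext Ultra kit. The submitters' processing notes name fastp, HISAT2 2.0.5 and featureCounts 1.5.0-p3. For build, annotation and strand setting nothing is given in the sources used here. Deposited by the authors were raw counts per NCBI GeneID, and the series table equalled the library files in 16 of 16 libraries. Of 32846 rows, 24 named mitochondrial RNAs (0.0568% of counts) and were left out. Symbols and gene neighbours came from the RefSeq annotation of the telomere-to-telomere Macaca fascicularis assembly, used for names only, and 24609 GeneIDs matched (97.2% of counts).

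Counts were filtered with filterByExpr (minimum count 10, minimum total 15), which kept 15921 genes holding 99.9% of counts, scaled by TMM and fitted with edgeR 4.0.16 in R 4.3.3 by the quasi-likelihood F test, with a mean per region and all 16 libraries. The common dispersion was 0.146, with 12 residual and 3.46 prior degrees of freedom. Benjamini-Hochberg adjustment ran over all tested genes. The scripts were tested on simulated data. The 9 comparisons were any difference, infrarenal minus the mean of the other 3, abdominal minus thoracic, and the 6 pairs. Alternatives were other scalings and filters, DESeq2 1.42.0, limma 3.58.1 (voom), a replicate block, each library left out, only the compared libraries, and 3 libraries left out. Correlations used log2 CPM with a prior count of 2, over genes whose mean log2 CPM was 1 or more. No 2 libraries of a region were alike within sampling noise (lowest chi-square per degree of freedom 28.2).

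The 9 genes and all lists of pathway genes and cell markers were chosen with earlier results of these data known. Genes outside the 9 were named where a pathway or marker list gene was called, or by the rule on nearest profiles; the rest were named as examples after their values were seen.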

Additional observations from a re-analysis of the deposited data

Results flagged for a closer look

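In the 36 groups of 4 libraries (9 genes in 4 regions), the highest or lowest library stood far from the other 3 in 6. The rule flags about 1 in 20 for independent values with a normal distribution. The groups share the same 16 libraries and CPM need not be normal, so that rate is only a rough guide here. In the suprarenal region, replicate 3 was high for NOS3 at 203 CPM and for GUCY1A1 at 75.7 CPM, and low for PDE5A at 133 CPM. In the descending region, replicate 1 was high for GUCY1A1 at 49.8 CPM. In the ascending region, replicate 4 was low for PRKG1 at 161 CPM and replicate 3 was high for NPR3 at 8.36 CPM. Suprarenal replicate 3 and ascending replicate 4 are also among the libraries whose marker sums stood apart.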

How the results depend on the processing

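The number of the 9 genes called, 1 for any difference, 1 for infrarenal minus the rest, 2 for abdominal minus thoracic and 3 for infrarenal minus ascending with all 16 libraries, was 0 to 3, 0 to 2, 0 to 4 and 1 to 4 when 1 library was left out. It was 0 to 2 for suprarenal minus ascending, and 0 to 0 for the other pairs. The fit without infrarenal replicate 1 gave the highest count in each of these, and the fit without descending replicate 3 gave 0 for abdominal minus thoracic. With library totals alone as the scaling the counts were 0 for any difference, 0 for infrarenal minus the rest and 1 for abdominal minus thoracic. With no filter beyond 1 count it was 0 for infrarenal minus the rest. DESeq2 called 4, 4, 1 and 2 for any difference, abdominal minus thoracic, infrarenal minus descending and suprarenal minus ascending, where it called 825, 650, 623 and 184 of all genes against 322, 336, 263 and 41 by edgeR. Voom called 0 of the 9 for any difference, among 233 genes. With only the compared libraries it was 1 for infrarenal minus ascending and 1 for descending minus ascending. With 3 libraries left out the counts were 4, 5, 4, 3, 5, 2 and 1 for any difference, infrarenal minus the rest, abdominal minus thoracic, infrarenal minus descending, infrarenal minus ascending, suprarenal minus ascending and descending minus ascending. The cause of these shifts was not tested.

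The replicate numbers were not taken as pairs: 19 of 24 same-numbered pairs correlated above 0.1. Their range was -0.17 to 0.58, against -0.50 to 0.61 for pairs with different numbers. However, 15 of 16 libraries were nearest on average to their own number. That link comes from the data and not the design, and the main p-values take no account of it. A replicate block gave 0 calls for any difference, where the GUCY1A1 adjusted p was 0.0592, and 4 for infrarenal minus ascending, where it added GUCY1B1 (0.74, adjusted p = 0.0285). The block with infrarenal replicate 1 left out, chosen after seeing the data, gave 3 for any difference, 2 for infrarenal minus the rest, 1 for infrarenal minus descending, 2 for suprarenal minus ascending and 1 for descending minus ascending.

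Signs changed only for genes that were not called. PDE5A, infrarenal minus ascending, was -0.19 without infrarenal replicate 2, 0.19, 0.03 and 0.17 without infrarenal replicate 1, infrarenal replicate 3 or ascending replicate 2, 0.06 with 3 libraries left out and 0.15 with the block and infrarenal replicate 1 left out. PDE5A, infrarenal minus the rest, was 0.09 without infrarenal replicate 1 and 0.05 with the block as well, and at least -0.29 over the fits without 1 library. NOS3, infrarenal minus the rest, was -0.19 without infrarenal replicate 3 and at most 1.25, without suprarenal replicate 3. NPR3, infrarenal minus ascending, was 0.46 by voom, 0.37 with the block, 0.65 with the block and infrarenal replicate 1 left out, and 1.59 without ascending replicate 3. NPR3 was 0.25 without ascending replicate 3 and 0.34 in that blocked fit for infrarenal minus the rest, and 0.09 without ascending replicate 3 for abdominal minus thoracic. The lowest NPR3 values without 1 library were -0.99, -0.94 and -1.24 for infrarenal minus ascending, infrarenal minus the rest and abdominal minus thoracic.

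Beyond single libraries, GUCY1B1 lost its call with library totals (adjusted p = 0.108), GUCY1A1 its infrarenal minus ascending call with only the compared libraries (0.0663) and its call for any difference with library totals (0.122) or voom (0.0554). NPR2 lost its calls for infrarenal minus the rest and infrarenal minus ascending with library totals (0.0829 and 0.0881) and with no filter (0.0623 and 0.0692), the first also with the block and infrarenal replicate 1 left out (0.0850), the second with only the compared libraries (0.219). Library totals moved the median of all genes by -0.10 for infrarenal minus ascending, and no sign changed under that scaling or RLE in any gene and comparison recomputed there, which leaves out pairs of regions with an unadjusted p of 0.05 or more, other than infrarenal minus ascending. NPR3, with 3 to 149 counts per library, had the widest 95% interval of the 9 genes for abdominal minus thoracic, -2.45 to 0.55.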
